A study of Mus musculus with 16 samples.

Results

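Txnip, the gene of thioredoxin-interacting protein, was examined in neural progenitor cells derived from the V6.5 line of mouse embryonic stem cells. Its interval was taken as chromosome 3 from 96358001 to 96370000 (build mm9), which holds the gene with its flanks. Of the 240 windows of 50 bp that fit into these 12 kb, 110 were listed in at least 1 of the 9 chromatin immunoprecipitation (ChIP-seq) libraries, and all 110 are described here. RNA polymerase II (Pol II) was mapped in 3 libraries, each of them the only one of its group. One came from untreated cells, another from cells given a control siRNA against luciferase, and the last from cells given an siRNA against Cbx3, the heterochromatin protein HP1 gamma. Transfected cells were harvested after 72 hours. Med26, a subunit of the Mediator coactivator, and Cdk8, the kinase of its detachable module, were each mapped in 1 library per siRNA group. Cbx3 was mapped in 2 libraries of untreated cells (sets 1 and 2). All groups carry the same cell line and the same route through embryoid bodies for 4 days. The untreated cells had no transfection, so they differ from the control group by more than the siRNA sequence. The level of Cbx3 after its siRNA and the identity of the cells by marker genes were not analysed here. The interval was chosen by its listed Pol II length, which was shorter after Cbx3 siRNA than after control siRNA, so the values of that comparison are a description.

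Txnip is an alpha-arrestin. Its product binds and inhibits thioredoxin, the small protein that keeps cellular thiols reduced, and it restrains glucose uptake by lowering glucose transporters at the cell surface. Transcription of the gene answers quickly to glucose through MondoA and ChREBP, which bind with Mlx at a carbohydrate response element close to the start site. NF-Y, the factor of CCAAT boxes, is also known to act at this promoter. Pol II at an active gene commonly gathers just after the start, where Mediator helps it to assemble and to move on, and again after the polyadenylation site, where it slows before release.

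The promoter is shown because Pol II, Med26, Cdk8 and Cbx3 were all listed over the Txnip interval. The stretch is RefSeq's, from 250 bases before the start to the first 50 of the transcript, on the + strand of GRCm38.p6. Capitals mark matches to a form of the carbohydrate response element (CACGNG given again after a short spacer of any bases), CCAAT and TATATAA, each searched on both strands.

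Txnip promoter: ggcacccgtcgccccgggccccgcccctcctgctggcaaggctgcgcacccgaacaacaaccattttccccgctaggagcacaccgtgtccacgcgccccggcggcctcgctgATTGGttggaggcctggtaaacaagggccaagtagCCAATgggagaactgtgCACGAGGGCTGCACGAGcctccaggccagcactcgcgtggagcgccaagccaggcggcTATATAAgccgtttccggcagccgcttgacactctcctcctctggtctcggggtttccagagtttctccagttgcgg

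Counted from the first base shown, the response element form lay at bases 166 to 182. CCAAT lay at bases 149 to 153 on the + strand and at 114 to 118 on the other strand, and TATATAA at bases 224 to 230. None of these matches overlapped another. Of 32851 RefSeq promoter stretches of this length, 16 held the response element form (0.0487%), 37.4% held CCAAT and 3.24% held TATATAA. Other forms of the response element were not counted, so the 0.0487% holds for this form and not for such elements at large. The matches marked above are letters in a reference sequence and no binding was measured at this resolution. The promoter table is of another build than the windows, so the start site was not placed on them. In the GRCm38 gene table the long noncoding RNA gene Gm15441 overlaps Txnip, and the protein-coding neighbours are Hjv and Polr3gl. ChIP signal has no strand, so Pol II on Txnip and on Gm15441 cannot be told apart.

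Each window carries a signal made by the authors, and the lists hold only windows above a minimum. In all 3 Pol II libraries the values were whole multiples of a small step. A read covering a window was taken as 50 steps, or a signal of 1.1 in both siRNA libraries and 1.05 in the untreated one. That reading is inferred from the values and is weak for Pol II, where multiples of 50 steps made up only 2.59 to 3.39% of values against 2% by chance. The lowest listed Pol II signal of the whole lists was 6.01 in each siRNA library and 9.02 in untreated cells, so low signal over Txnip could be listed in the siRNA libraries and missing in the untreated one. Levels of the siRNA pair share the value of 1 read and were compared as deposited. Total reads per library are unknown, and differences in depth between libraries were not tested.

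Pol II over Txnip had a pair of summits joined by a lower stretch. In the control siRNA library the first summit was the window from 96361901 to 96361950, with a signal of 99.5, and distances below are counted from the start of this window. The second summit, the highest control window over 1 kb away, lay 4300 bp further on with a signal of 48.7. In untreated cells the highest window was at the same place as in the control, with a signal of 69.0, and the second summit lay at 4200 bp with 49.6. After Cbx3 siRNA the first summit reached 78.9 one window further on, and the second reached 55.2 at 4200 bp. Thus the first summit was highest in the control library, while the second differed little between the 3 libraries. Txnip lies on the + strand in the RefSeq table, in which order the first summit is towards the start of the gene and the second towards its end.

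**Figure D1:**
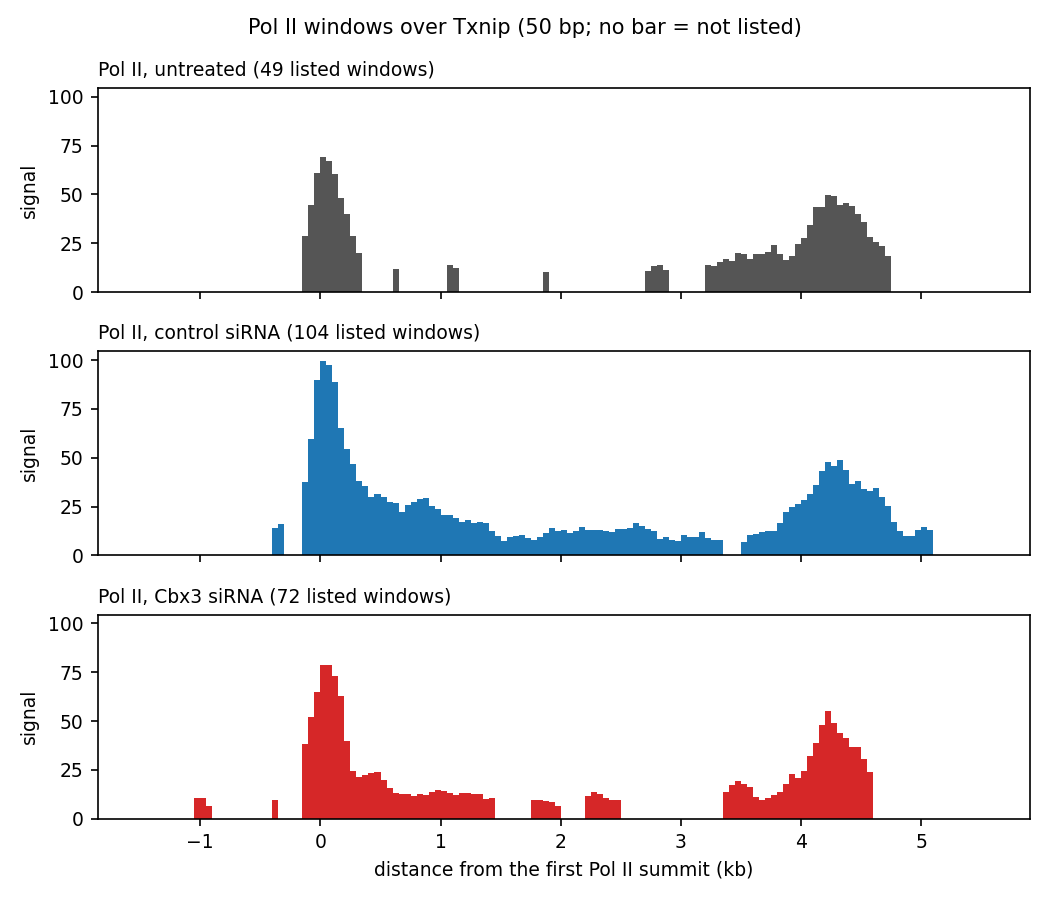
Pol II signal (y axis, authors' units) of each 50 bp window over Txnip against distance from the first summit in kb, for untreated, control siRNA and Cbx3 siRNA cells, 1 library each. Bars are listed windows; both summits stand in all 3 panels, and the stretch between them is filled in the control panel, broken after Cbx3 siRNA, and holds only short runs before the rise to the second summit in untreated cells.

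The listed length over the interval was 2450 bp in untreated cells, 5200 bp after control siRNA and 3600 bp after Cbx3 siRNA. The Cbx3 siRNA length was 69.2% of control over Txnip and 87.1% over the whole lists. Both shares also count windows that the control did not list, so they do not give the share of control windows lost. The untreated length was 47.1% of control over Txnip and 30.05% over the whole lists, so a shorter untreated list is no trait of Txnip. The mean signal of the listed Txnip windows was 28.9, 23.6 and 23.2 in untreated, control siRNA and Cbx3 siRNA cells. In the control library an unbroken run of 3500 bp started 150 bp before the first summit, and another of 1600 bp covered the second. After Cbx3 siRNA the run over the first summit was 1600 bp long and that over the second was 1250 bp. Isolated runs of 250 and 300 bp lay between them, from 1750 to 1999 and from 2200 to 2499 bp. In untreated cells the first run was 500 bp and the second, which reached back to 3200 bp, was 1550 bp. No Pol II library listed the windows from 300 to 150 bp before the first summit, although a short run lay just beyond that gap in both siRNA libraries. The control list thus joined the summits with a single short gap, and the other lists left wider ones.

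The log2 ratio of Cbx3 siRNA to control signal had a median of -0.32 over the 66 windows that both siRNA libraries listed, with values from -1.25 to 1.36. Of these windows 53 were lower and 13 higher after Cbx3 siRNA. Across all 74288 Pol II windows listed in both libraries the median was -0.29, a shift of the whole lists against which the values along the gene are to be read. Relative to it the Txnip median was -0.031. Windows lower by more than 1.5-fold made up 18 of the 66 (27.3%), and the background was 24.2% of all windows. By more than 2-fold it was 5 of 66 (7.58%), with 4.96% of all windows. The level of Pol II over Txnip as a whole was therefore lower by about as much as in the median Pol II window. Its listed length was shorter after Cbx3 siRNA, but 36.5% of its control windows were not listed again, near the 36% of all control windows.

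The difference was uneven along the gene. Within 250 bp of the first summit 8 of 9 windows were lower, with a median of -0.30, close to the -0.29 of all windows, and a mean signal of 71.0 in control and 57.0 after Cbx3 siRNA. From 500 to 1000 bp all 10 windows were lower, with log2 differences from -1.25 to -0.59 and a median of -0.95; the median signal there was 27.0 in control and 13.0 after Cbx3 siRNA. From 1000 to 1500 bp the 9 windows listed in both had a median of -0.48, also below the -0.29 of all windows. From 4000 to 4500 bp, over the second summit, the median was 0.02, with signals of 40.7 and 40.2. In between, the medians were -0.36 from 1500 to 2000 bp, -0.19 from 2000 to 2500 bp and -0.18 from 3500 to 4000 bp, over 5, 6 and 10 windows, on both sides of the -0.29, and no window from 2500 to 3000 bp was listed after Cbx3 siRNA. Among windows listed in both libraries the lowest values thus lay 500 to 1000 bp past the first summit. Over the second summit both libraries had nearly the same signal. Control windows not listed after Cbx3 siRNA have no value and cannot be ranked. They include all 10 from 2500 to 3000 bp, all 7 from 3000 to 3500 bp and 5 of 10 from 1500 to 2000 bp.

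Stretches of 500 bp with all 10 windows listed in both libraries and a median control signal within 1.2-fold gave a measure of how common such values were. For the stretch from 500 to 1000 bp there were 350 such stretches elsewhere, with a median of -0.34 and 90% of them between -0.80 and 0.11. Only 8 of the 350 were lower than at Txnip (2.29%), and 16.9% were lower by more than 1.5-fold. Stretches with any window missing after Cbx3 siRNA were left out by this rule. In the control signal class of 20 to 30, 88.5% of all windows were listed again. Stretches with larger falls may therefore be missing from the 350, and the 2.29% may be too low. For the stretch from 4000 to 4500 bp there were 155, with a median of -0.42, and 151 of them were lower than at Txnip. For the first 500 bp, at -0.37, 35 of 67 were lower. The first summit thus lay in the middle of stretches of like signal, the next 500 bp near their lower end and the second summit near their upper end. These stretches were picked out after their values were seen, so the counts describe and do not test.

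**Figure D2:**
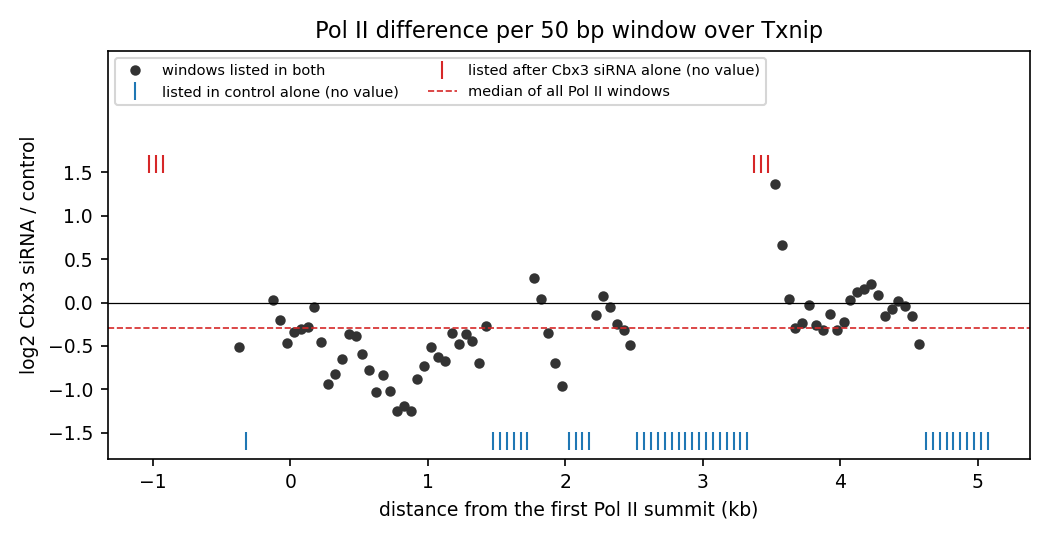
Log2 ratio of Pol II signal, Cbx3 siRNA over control, for each of the 66 windows of 50 bp listed in both libraries (points) against distance from the first summit in kb; the dashed line is the median of all Pol II windows, -0.29. Ticks at the bottom are the 38 windows listed in control alone and ticks at the top the 6 listed after Cbx3 siRNA alone, placed for position only; points are lowest between 0.5 and 1 kb and near 0 over the second summit.

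Counting error was wide for single windows. On the inferred reading, the first summit window of the control held 90.4 reads there and 71.5 after Cbx3 siRNA, a ratio of 0.789 with an exact 95% interval of 0.570 to 1.09. The window at 750 bp had the lowest log2 difference between the summits. It went from a signal of 27.5 to 11.6, or from 25.0 to 10.5 reads, a ratio of 0.44 with an interval of 0.195 to 0.927. At the second summit window the ratio was 0.909 (0.577 to 1.43). Of these windows only that at 750 bp had an interval below 1, and it was picked for its difference. The intervals cover counting error only and neighbouring windows share reads, so the 10 windows of a stretch are no replicates.

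The 38 control windows not listed after Cbx3 siRNA made up 36.5% of the 104, and the background was 36% of all control Pol II windows. Of them 27 lay between the summits, with control signals of 7.48 to 16.8, none lay within 250 bp of either summit, and 11 lay outside. In the control signal class of 10 to 20, 23 of 43 Txnip windows were listed again, and 57.1% of all windows of that class were. Below 10 it was 3 of 18, with 21.0% of all, and from 20 to 30 it was 15 of 16, with 88.5%. The listing of Txnip windows was therefore close to that of all windows of the same strength. In the class from 30 to 60, where 98.6% of all windows were listed again, 20 of 22 Txnip windows were. The missing windows were those at 4600 and 4650 bp, with control signals of 34.5 and 30.1. Their untreated signals were 25.8 and 23.4. The Cbx3 siRNA list ended one window before, at a signal of 23.8, whereas the control list went on to 5099 bp. A missing window need not hold low signal, because the test that made the lists is not given in the sources used here.

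Pol II just before the rise to the second summit was listed after Cbx3 siRNA and only in part in the control. Windows at 3350, 3400 and 3450 bp had signals of 13.9, 17.3 and 19.4 after Cbx3 siRNA and 17.0, 15.7 and 19.9 in untreated cells, and were not listed in the control. At 3500 bp the signal was 17.7 after Cbx3 siRNA, 6.89 in control and 19.4 in untreated cells, and at 3550 bp it was 16.4, 10.4 and 17.0. At both measured windows the control had the lowest signal of the 3; the other 3 have no control value. The remaining windows listed after Cbx3 siRNA alone lay 1050 to 950 bp before the first summit, with signals of 6.56 to 10.9, and neither other library listed Pol II there.

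The untreated library gave a second reference, though the comparisons share libraries and the value of 1 read differs. Over the 46 windows listed in both, control minus untreated had a median log2 difference of 0.060, with 24 higher and 22 lower, while all 32821 Pol II windows of that pair had a median of 0.60. Windows higher in control by more than 1.5-fold were 4 of 46 at Txnip (8.70%), and the background was 51.5%. Along the gene the difference was 0.53 within 250 bp of the first summit, 1.19 in the single window of both from 500 to 1000 bp and 0.61 in the 2 windows from 1000 to 1500 bp. It was -0.69 from 3500 to 4000 bp and -0.074 from 4000 to 4500 bp. The values given up to 1500 bp thus lay near or above the shift of the whole lists, those past 500 bp resting on few windows. The medians from 3500 to 4500 bp lay below it. Single windows within 250 bp of the first summit ran from 0.38 to 0.71, and 42 of the 46 Txnip windows lay below the median of all windows. Over the 39 windows of both, Cbx3 siRNA minus untreated had a median of -0.045, and all windows of that pair had 0.30. None of the 39 was higher after Cbx3 siRNA by more than 1.5-fold, against a background of 27.2%. Windows listed in the siRNA libraries alone, which make up much of the stretch between the summits, have no untreated value. Set against the shift of their whole lists, the medians of both siRNA libraries over Txnip were therefore below untreated cells in windows strong enough to be listed there, most of them around the second summit. By the highest window alone control minus untreated was 0.53.

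The ratio of the second to the first summit within a library does not depend on depth. It was 0.719 in untreated cells (exact 95% interval 0.479 to 1.05), 0.489 after control siRNA (0.333 to 0.709) and 0.699 after Cbx3 siRNA (0.474 to 1.01). With the mean of listed windows within 250 bp of each summit in place of the highest ones, the ratio was 0.838, 0.561 and 0.696. The control value was the lowest by either measure, but the 3 intervals overlapped, and whether the Cbx3 siRNA value was near the untreated one depended on the measure. Over the 36 windows listed in all 3 libraries, Pearson's r of log2 signal was 0.93 between untreated and Cbx3 siRNA, 0.82 between untreated and control, and 0.90 between control and Cbx3 siRNA. These windows share reads with their neighbours and no p is given. Between the summits 16 windows were listed in all 3, of which 11 lay from 3500 bp on, on the flank of the second summit. Their median signal was 28.0% of the first summit in untreated cells, 18.0% in control and 17.2% after Cbx3 siRNA. Over all windows each library listed between the summits it was 24.3%, 13.3% and 16.5%, so the order of the siRNA libraries depended on the windows taken.

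Txnip was then set beside control Pol II regions of like strength. Merging windows up to 200 bp apart gave 16073 control regions, and Txnip was 1 region from 96361501 to 96367000. The highest control window was within 1.2-fold of that of Txnip in 55 other regions, of which 54 had windows in both siRNA libraries. Their median log2 difference was -0.36, with 90% of them between -0.66 and -0.13, and 36 of the 54 were lower than Txnip. The place of Txnip among them depended on the setting: with adjacent windows merged only, 14 of 54 were lower, and with missing windows set at the lowest listed signal, 18 of 55. Of the 54, 11.1% were lower by more than 1.5-fold, as were 17.2% of all 10872 regions with windows in both, and Txnip was not. By the highest window alone the difference was -0.33 at Txnip and -0.39 in the median region of like signal. By neither measure did Txnip lie outside the middle 90% of regions of like control signal.

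Length did set it apart, as it was the measure that chose it. Txnip had 5200 bp listed in control, while the 55 regions had a median of 800 bp and a maximum of 4250 bp. Its share of control windows listed again, 63.5%, was lower than in all but 3 of the 55 regions, whose median was 85.7%. Those 3 had shares of 0, 25 and 60%. The regions at 0 and 25% had 50 and 400 bp listed and lay close together on chromosome 17. Over all 16073 control regions the median share was 56.25%, below that of Txnip. Its mean control signal, 23.6, was also lower than in 54 of the 55, since a long stretch of low windows joins its summits. A window of low signal is listed again less often, as the classes above show, and how far length alone accounts for the 63.5% was not tested.

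Control minus untreated gave different pictures by median and by highest window. The median difference over Txnip was 0.060, while the 54 regions with untreated windows had a median of 0.62, and 53 of them were higher than Txnip. The only lower one, at -0.099, lay on chromosome 17 from 39983301 to 39983700. Of the 54, 53.7% were higher in control by more than 1.5-fold, and of all 7102 regions 50.6%. For Cbx3 siRNA minus untreated, 47 of the 54 were higher than Txnip at -0.048. By the highest window, however, control minus untreated was 0.53 at Txnip and 0.52 in the median like region, with 28 of the 54 lower, and with missing windows set at the lowest listed signal the value over Txnip was 0.44. The low median thus did not hold at the first summit. This pair shares the control library with the one that chose the gene.

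**Figure D3:**
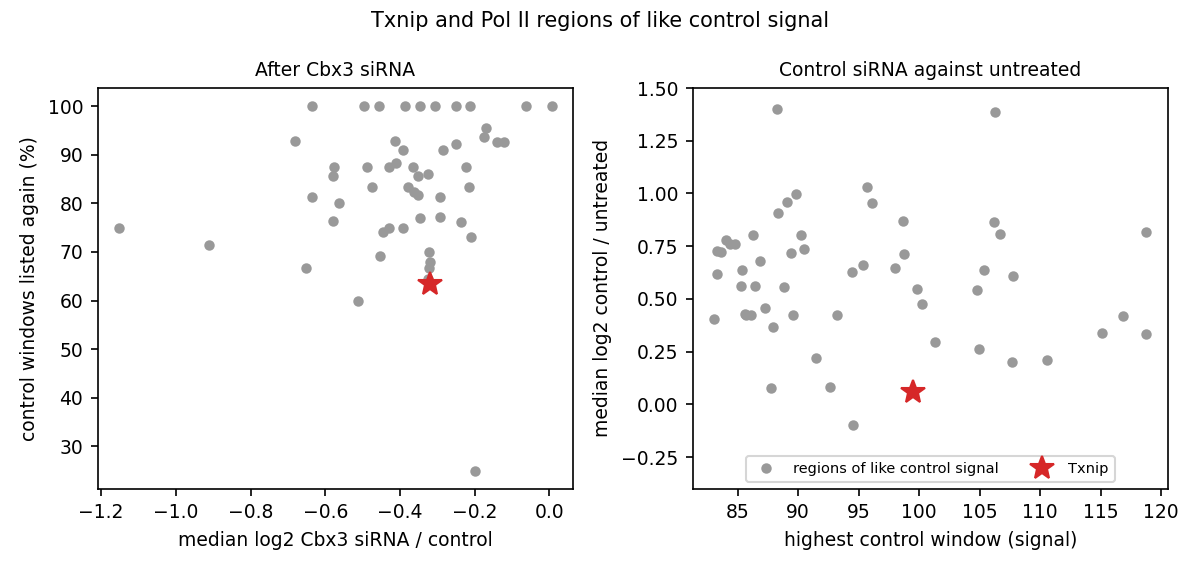
Left, the share of control Pol II windows listed again after Cbx3 siRNA (y axis, percent) against the median log2 ratio of Cbx3 siRNA to control; right, the median log2 ratio of control to untreated against the highest control window. Each grey point is 1 of the regions of like control signal and the star is Txnip, which sits among the others for the log2 ratio after Cbx3 siRNA, near the bottom for windows listed again (63.5%) and near the bottom for the median of control against untreated (0.060), which the highest windows do not share.

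The 3 regions whose pattern was nearest to that of Txnip, by distance over these 2 medians among 54, all lay on chromosome 1 within a short span. They ran from 72301301 to 72302350, from 72290301 to 72291500 and from 72272901 to 72273550. Their Cbx3 siRNA minus control medians were -0.35, -0.43 and -0.35, and their control minus untreated medians 0.084, 0.076 and 0.20. None of the 3 held Cbx3 or Cdk8 windows; the latter pair held 4 and 2 Med26 windows in control and 2 and 0 after Cbx3 siRNA. No gene was assigned to them, as no annotation of mm9 was used here.

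Med26 and Cdk8 were listed at the first summit of Txnip under control siRNA and nowhere in the interval after Cbx3 siRNA. Med26 covered 4 windows from 96361851 to 96362050, with signals of 11.0, 13.8, 13.1 and 10.7. Cdk8 covered 2 windows from 96361901 to 96362000, with signals of 15.9 and 14.4. The highest window of both was the Pol II summit window. On the inferred reading these windows held up to 14.4 reads of Med26 and 11.3 of Cdk8, so they rest on few reads. The lowest signal of either Cbx3 siRNA list was 6.01, or 6.24 reads of Med26 and 4.26 of Cdk8. Neither factor was listed between the summits or at the second summit in any library.

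After Cbx3 siRNA most control regions of either factor were not listed again, namely 91.5% of 5990 for Med26 and 88.7% of 5574 for Cdk8. The sizes of the whole lists went opposite ways, from 15546 to 2721 windows for Med26 and from 9960 to 10955 for Cdk8. Control Pol II regions that held Cdk8 numbered 1126 with the control list and 1352 with the Cbx3 siRNA list. Most control Cdk8 regions were thus missing from a list that was not shorter. All 4 Med26 windows were missing after Cbx3 siRNA, against a background of 93.9% of control Med26 windows. Of 1389 Med26 regions with a highest window within 1.2-fold, 1182 were not listed again (85.1%, Wilson 95% interval 83.1 to 86.9%). Both Cdk8 windows were missing, against a background of 75.3%. Of 203 Cdk8 regions of like signal, 83 were not listed again (40.9%, interval 34.4 to 47.8%), while of all 1126 Pol II regions with control Cdk8 741 held none afterwards (65.8%). Among the 55 Pol II regions of like signal, 35 held control Med26 (63.6%) and 28 of these held none after Cbx3 siRNA (80%). Of all Pol II regions 25.3% held control Med26, and 3430 of those 4073 held none afterwards (84.2%). Of the same 55, 8 held control Cdk8 (14.5%, with 7.01% of all) and 5 of these held none afterwards (62.5%). The 4 regions with both factors in control and Txnip all lost both from the lists, while over all Pol II regions 272 of 513 did (53.0%). The median log2 Pol II difference was -0.35 in the 28 regions of like signal where Med26 was not listed again and -0.41 in the 7 where it was. Their ranges from the lower to the upper quartile, -0.45 to -0.25 and -0.44 to -0.35, overlapped.

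**Figure D4:**
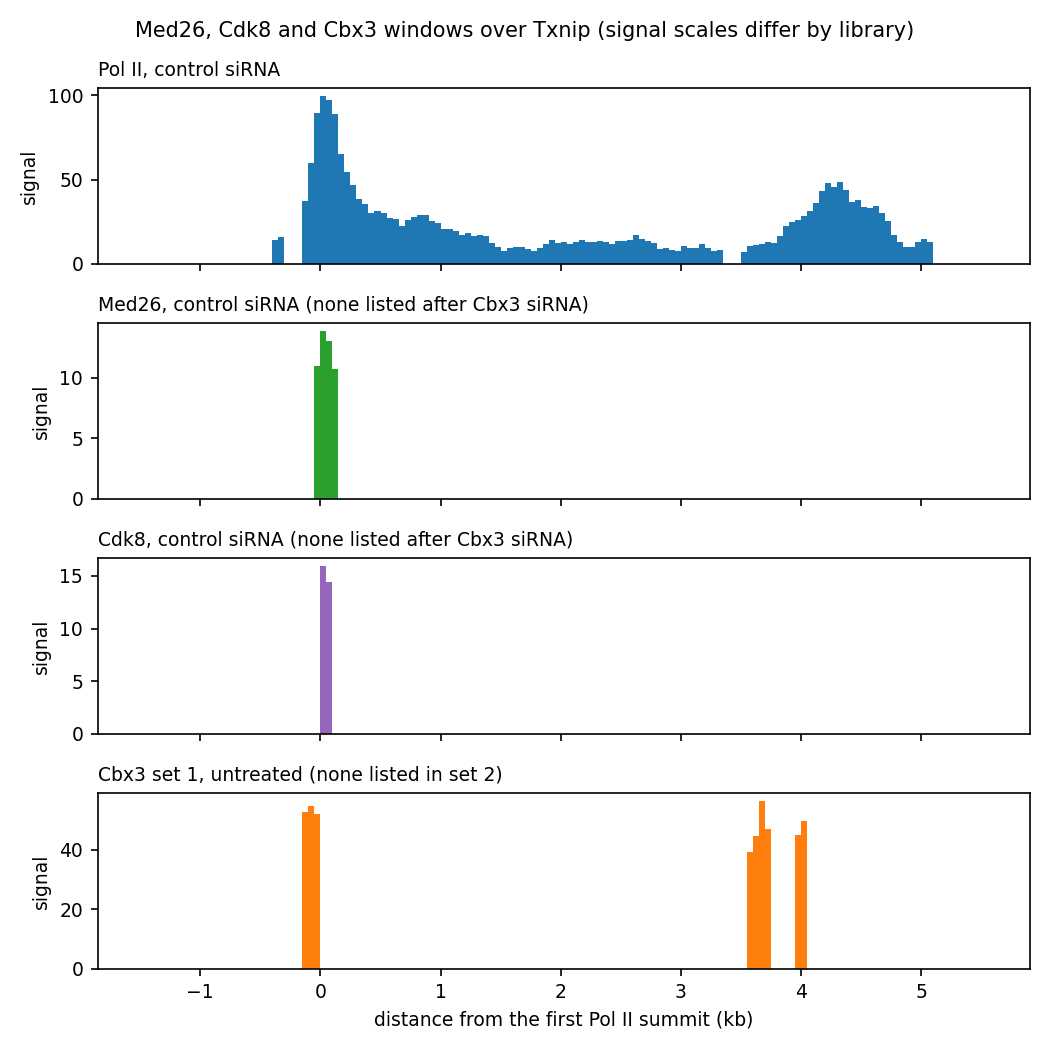
Signal (y axis, authors' units, with a scale of its own in each panel) of listed 50 bp windows over Txnip against distance from the first Pol II summit in kb, for Pol II, Med26 and Cdk8 after control siRNA and Cbx3 set 1 in untreated cells, 1 library each. Med26 and Cdk8 stand on the first Pol II summit alone, while Cbx3 stands just before the first summit and again before the second.

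Cbx3 over Txnip was listed in set 1 alone, with 9 windows in set 1 and 0 in set 2. The first 3 windows ran from 150 bp before the first summit up to it, with signals of 52.9, 54.9 and 51.9. They were the first 3 windows of the Pol II run over the first summit in every Pol II library. A run of 4 windows lay from 3550 to 3749 bp, with signals of 39.4 to 56.3, and a run of 2 from 3950 to 4049 bp, with 45.0 and 49.6, on the rising side of the second summit. No Cbx3 window lay from 500 to 1000 bp, where the median log2 Pol II difference was the lowest of the stretches with values. At the 3 windows before the first summit Pol II went from 37.4, 59.8 and 89.6 in control to 38.1, 52.0 and 65.1 after Cbx3 siRNA. In set 1 as a whole 70.5% of windows were below the lowest of the 9, and 95.5% below the highest, which held the equivalent of 14.1 reads. Of the 55 Pol II regions of like signal, 38 held Cbx3 of set 1 (69.1%, interval 56.0 to 79.7%) and 15 held set 2 (27.3%). Over all 16073 control Pol II regions the shares were 39.2% and 11.7%. Cbx3 of set 1 at Txnip was thus the common case among regions of like signal, but not among all regions. The regions of like signal were also longer, with a median of 800 bp listed, 300 bp over all regions and 5200 bp at Txnip. A region counted if it held any listed window, and length was not adjusted for. The same limit holds for the Med26 and Cdk8 shares of these regions. Cbx3 was not mapped after its siRNA in the libraries used here, and whether its signal over Txnip was lower then was not tested.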

How the data were processed

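Per the submitters' processing notes, reads were aligned with Bowtie to mm9; how windows were called, against what threshold and with which of the 7 inputs, and tool versions, are not given in the sources used. Inputs were not analysed here. The deposited signal is the authors' value per listed 50 bp window, with unknown normalization. Window coordinates were read as counted from 1. The interval, the stretches within it and the comparisons were chosen with earlier results of these data known. Windows up to 200 bp apart were merged; a region's strength was its highest window, and regions of like signal lay within 1.2-fold of Txnip. Log2 differences are medians over windows listed in both libraries, with no pseudocount. Named regions were the 3 nearest to Txnip by Euclidean distance over both medians. With 1 library per group no test was run. Intervals of read ratios are exact binomial at 95% and cover counting error only. Intervals of shares of regions are Wilson at 95%. They treat the regions of 1 library as independent draws and hold no spread between libraries. The 2 Cbx3 libraries were given separately. The pathway genes and cell markers planned for an mm9 annotation were not placed. Alternatives covered the summary, missing windows, centring, bands, merging and each Cbx3 set. Merging and differences were tested on simulated data. These were drawn for each window on its own, with less counting error than the inferred reads have. They therefore check the calculation and not how reliable differences are at this depth. The tools were scipy 1.17.1, pandas 2.3.3 and numpy 2.4.6 under Python 3.11.15, with figures drawn in matplotlib 3.10.9.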

Additional observations from a re-analysis of the deposited data

How the results depend on the processing

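The alternatives against untreated cells, the centred share and the summit means were chosen after seeing the data, and the cause was not tested. With missing windows set at the lowest listed signal, the median log2 difference over Txnip was -0.48 for Cbx3 siRNA minus control, 0.44 for control minus untreated and 0.089 for Cbx3 siRNA minus untreated. Centred on all windows these were -0.031, -0.54 and -0.34, and by the highest window of each library the latter pair was 0.53 and 0.19. The sign of both differences from untreated cells thus depends on the setting. Cbx3 siRNA minus control was below 0 under every setting run, but after centring it was only -0.031. The interval was chosen by its shorter listed Pol II length in this pair, so that constant sign is a description and no support. The number of like regions lower than Txnip, 36 of 54, was 119 of 186 in a 1.5-fold band, 1833 of 3254 by mean signal, 1 of 2 with length within 2-fold, 14 of 54 with adjacent windows merged only and 18 of 55 with missing windows at the lowest signal. Windows lower by more than 1.5-fold, 27.3%, were 12.1% after centring, and 7.58% were lower by more than 2-fold. The listed length after Cbx3 siRNA was 69.2% of control, and 64 to 66.3% under its alternatives, with 87.1% over the whole lists. The Cbx3 sets listed 0 to 9 windows, with a mean of 4.5. The second-to-first summit ratio, Cbx3 siRNA over control, was 1.43 by highest windows and 1.24 by means. No paired analysis was possible because no antibody had more than 1 library in an siRNA group. Low read numbers limit Med26, Cdk8 and Cbx3 at this gene.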
